A study of Mus musculus with 5 samples.

Results

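The natriuretic peptide system of the heart was followed through 8 genes: the peptide genes Nppa and Nppb, the receptor genes Npr1, Npr2 and Npr3, and the protease genes Corin, Furin and Mme. They were taken by gene symbol from a deposited table of 17228 genes, all 8 were found, and all 8 were among the 12540 genes that passed the filter on low counts. Poly-A RNA from whole hearts of mice aged 6 months had been sequenced in 5 libraries. Of these, 3 came from diabetic db/db mice, labelled KsJ-Lepr db/Lepr db on a C57BL strain, from 2 females and 1 male. The other 2 came from WT (nondiabetic, C57BL) mice, 1 female and 1 male. Mice with both copies of Lepr, the leptin receptor gene, mutated in every cell overeat and turn obese and diabetic. Per the labels, both genotypes ate a standard diet and were bought from 1 supplier. The labels name the KsJ background for db/db alone, so the Lepr genotype and the strain background cannot be told apart, and the growth protocol speaks of male mice although 3 libraries are labelled female. The study addressed how the heart changes in type 2 diabetes. Whether each library stands for its own animal is not stated, so p-values describe only how these libraries vary.

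Natriuretic peptides are hormones that heart muscle cells release when they are stretched. Atrial natriuretic peptide (ANP, from Nppa) and B-type natriuretic peptide (BNP, from Nppb) are made as precursors, and corin cuts pro-ANP while furin cuts pro-BNP. Both peptides act through natriuretic peptide receptor A (Npr1), a membrane guanylyl cyclase that makes cGMP, relaxes vessels and raises sodium excretion. The related C-type peptide acts through receptor B (Npr2). Receptor C (Npr3) clears the peptides from the circulation, and neprilysin (Mme) degrades them. Nppa and Nppb transcripts usually rise in ventricles under load, and plasma BNP serves as a marker of heart failure.

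The peptide genes Nppa and Nppb lie side by side on chromosome 4 in GRCm38.p6, Nppb at chr4:147985786-147987205 and Nppa at chr4:148000722-148002074, both on the plus strand and 13516 bases apart. Sequence at the gene starts is shown because both peptide genes are known targets of cardiac transcription factors and both were below WT in each db/db heart. It was taken from RefSeq promoters of GRCm38.p6. Capitals mark matches on either strand. The motif of GATA factors was searched as GATAA. The M-CAT motif, to which TEAD factors bind, was searched as GGAATG. A motif of the NKX2-5 type was searched as AAGTG, and the TATA box as TATAAA. No match overlapped another.
Nppa, the 250 bases before its start (chr4:148000472-148000721, plus strand): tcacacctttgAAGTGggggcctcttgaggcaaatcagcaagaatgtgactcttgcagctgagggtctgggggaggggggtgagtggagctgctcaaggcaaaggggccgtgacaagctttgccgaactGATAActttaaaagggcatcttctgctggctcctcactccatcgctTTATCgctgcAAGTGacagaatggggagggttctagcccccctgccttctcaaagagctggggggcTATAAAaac
Nppb, motif stretch (chr4:147985795-147985824, plus strand): GGAATGcagctGATAAatcagaGATAAccc
Nppb, TATA stretch (chr4:147985860-147985889, plus strand): cagccccagTATAAAaggcagaggcaccgt
For Nppb the window also ran over 250 bases before the start at 147985900 used in the RefSeq promoters. The RefSeq span given above starts the gene at 147985786, and GENCODE M21 starts it at 147985788. By GENCODE, 112 bases of the window lie inside the gene. Both printed stretches lie inside it by either span, and printing was kept to those short stretches for this reason. Each window held 2 GATA motifs and 1 TATA box. The Nppa window also held 2 NKX2-5 type motifs and no M-CAT, and the Nppb window 1 M-CAT and no NKX2-5 type motif. Among 32851 RefSeq promoter windows of the same length, 22.6% held GATAA, 12.6% GGAATG, 40.7% AAGTG, 12.4% TATAAA, and 4.16% held both GATAA and TATAAA. These matches describe letters and not bound sites.

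The libraries held 8356099 to 10381326 counts and 14685 to 15132 detected genes each. Lepr, on chromosome 4 as well (chr4:101717137-101815352), had 3, 7 and 5 counts in db/db hearts, against 37 and 14 counts in WT hearts. The groups did not overlap, and the log2 fold change was -2.21 (SE 0.56, edgeR adjusted p = 0.106). The transcript levels of all genes also drifted with gene length in opposite ways in the db/db male and in the WT female, a trend taken up beside the peptide genes because they are short. With genotype alone, edgeR called 129 genes at an adjusted p under 0.05, 84 higher and 45 lower in db/db.

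In TPM (a level per transcript length, scaled to the same total in each library, that can be compared between genes), the peptide genes stood far above their receptors and proteases. Nppa was at 508, 398 and 475 TPM in db/db hearts, against 825 and 860 TPM in WT hearts. Nppb was at 438, 263 and 292 TPM in db/db hearts, against 836 and 1274 TPM in WT hearts. Neither gene's db/db and WT values overlapped. The TPM values of Npr1, Npr2 and Mme were also lower in each db/db heart than in both WT hearts. On the scale of the test, given below, the groups of Npr1 and Npr2 overlapped. On log2(TPM + 1) the median of all genes stood at -0.24 in db/db over WT, and non-overlap over all genes was not counted in TPM. Nppa ranked 280, 337 and 295 among all genes by TPM in db/db hearts, against 204 and 195 in WT hearts. Nppb ranked 310, 478 and 413 in db/db hearts, against 199 and 125 in WT hearts. The summed level of both peptide transcripts was 947, 661 and 767 TPM in db/db hearts, against 1662 and 2134 TPM in WT hearts, again without overlap.

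The order of the 8 genes by TPM was the same in all 3 db/db hearts: Nppa, Nppb, Corin, Furin, Npr2, Npr1, Npr3, Mme. In both WT hearts Nppb stood above Nppa, though only just in the WT female (836 against 825 TPM). In the WT male Npr2 (21.5 TPM) stood just above Furin (19.0 TPM). Corin, the ANP convertase, averaged 45.3 ± 6.93 TPM in db/db and 43.9 ± 17.1 TPM in WT hearts (SD, n = 3 and 2). Furin, the general proprotein convertase, averaged 21.6 ± 3.89 TPM in db/db and 24.7 ± 8.0 TPM in WT hearts. Npr2 averaged 17.95 ± 3.27 TPM in db/db and 24.2 ± 3.82 TPM in WT hearts. The ranges of Furin and Npr2 overlapped in both genotypes, although Furin was the higher of the pair in each db/db heart. Npr1 followed at 9.93 ± 1.56 TPM in db/db and 13.0 ± 0.73 TPM in WT hearts. The clearance receptor Npr3 averaged only 2.84 ± 0.21 TPM in db/db and 2.91 ± 0.28 TPM in WT hearts. Neprilysin was the lowest of the 8, at 0.78 ± 0.16 TPM in db/db and 1.46 ± 0.40 TPM in WT hearts.

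**Figure D1:**
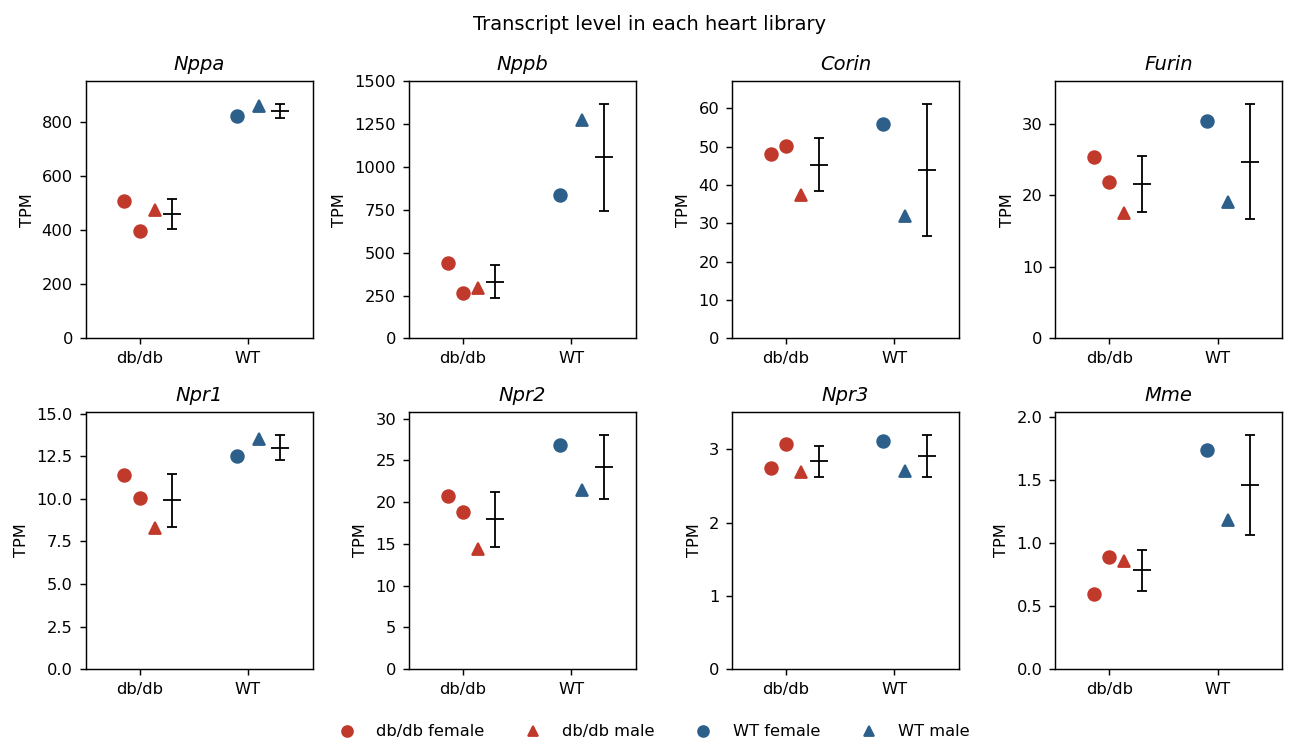
Transcript level in TPM of each of the 8 genes in each heart library, with db/db at the left and WT at the right of each panel (circles, females; triangles, males; bar, mean ± SD of 3 db/db and 2 WT libraries). Nppa at 398 to 508 TPM and Nppb at 263 to 438 TPM in db/db lie below both WT hearts. Npr1, Npr2 and Mme do so too, whereas the values of Corin, Furin and Npr3 overlap between genotypes. On the CPM scale of the test, Npr1 and Npr2 overlap as well.

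Nppb, the BNP gene, fell in db/db hearts and was the 1 of the 8 genes called in the comparison of genotypes. In CPM (counts scaled to the TMM-adjusted library size, the scale of the test), it had 236, 142 and 193 CPM in db/db hearts, against 362 and 659 CPM in WT hearts. Every db/db heart lay below both WT hearts, and the WT male stood well above the WT female. The log2 fold change was -1.43 (SE 0.26, 95% interval -2.01 to -0.84, edgeR adjusted p = 0.0335), so that the db/db level was 0.372 of the WT level (95% interval 0.248 to 0.558). Among the 45 genes called lower, Nppb was number 16 by size of the log2 fold change. The share of all tested genes called was 1.03% in either direction, 0.359% lower and 0.67% higher in db/db. The authors' deposited table gave Nppb a log2 fold change of -1.42 with q = 2.43e-06, where 1.35% of genes with a q passed 0.05. In the authors' deposited table q was 0.117 for Nppa and 0.618 or above for the other 6 genes.

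The call of Nppb depended on single libraries and on the model. Without the WT male the log2 fold change was -0.93 (edgeR adjusted p = 0.181), and without the db/db male it was -1.44 (adjusted p = 0.426). In a model that also held sex it was -1.30 (adjusted p = 0.141), a fit in which 6.61% of all tested genes were called. The direction was the same in all 20 alternatives, between -1.80 and -0.93, and 14 of them kept it under the threshold.

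Nppa, the ANP gene, had 309, 241 and 350 CPM in db/db hearts, against 401 and 497 CPM in WT hearts. Here too each db/db heart lay below both WT hearts, with a smaller gap. The log2 fold change was -0.58 (SE 0.18, 95% interval -0.98 to -0.19), and it missed the threshold after adjustment over all genes (edgeR adjusted p = 0.199). It was negative under all 20 alternatives, between -0.88 and -0.42, and passed in 11 of them. These included the fit with sex as a covariate (-0.53, edgeR adjusted p = 0.0184), which called 6.61% of all tested genes. Another was the fit without the db/db male (-0.71, edgeR adjusted p = 0.0174), which called 1.92%. With genotype alone the share was 1.03%, so some of the 11 came from fits that called more genes in general. The fit on females alone, also among the 11, held 1 WT library. Of the 11, 1 fit left out both the db/db male and the WT female and so set 2 db/db females against 1 WT male, in which genotype and sex cannot be told apart.

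The size of the Nppa change moved with the treatment of gene length. The transcript lengths implied by the deposited values were 773 bases for Nppa and 689 bases for Nppb, against a median of 2769 bases over the tested genes, of which 4.26% and 3.29% were shorter. At the length of Nppa the trend over all genes stood at 0.011, 0.0066 and 0.25 on the log2 scale in db/db female 1, db/db female 2 and the db/db male, against -0.27 and 0.0032 in the WT female and the WT male. With this trend removed, Nppa had a log2 fold change of -0.80 (edgeR adjusted p = 0.0115) and Nppb of -1.63 (adjusted p = 0.0158), where 1.2% of tested genes were called. On the TPM scale Nppa stood at -0.88 (limma adjusted p = 0.00139). That scale also moved the median of all genes to -0.24, relative to which Nppa was at -0.64 and Nppb at -1.43.

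**Figure D2:**
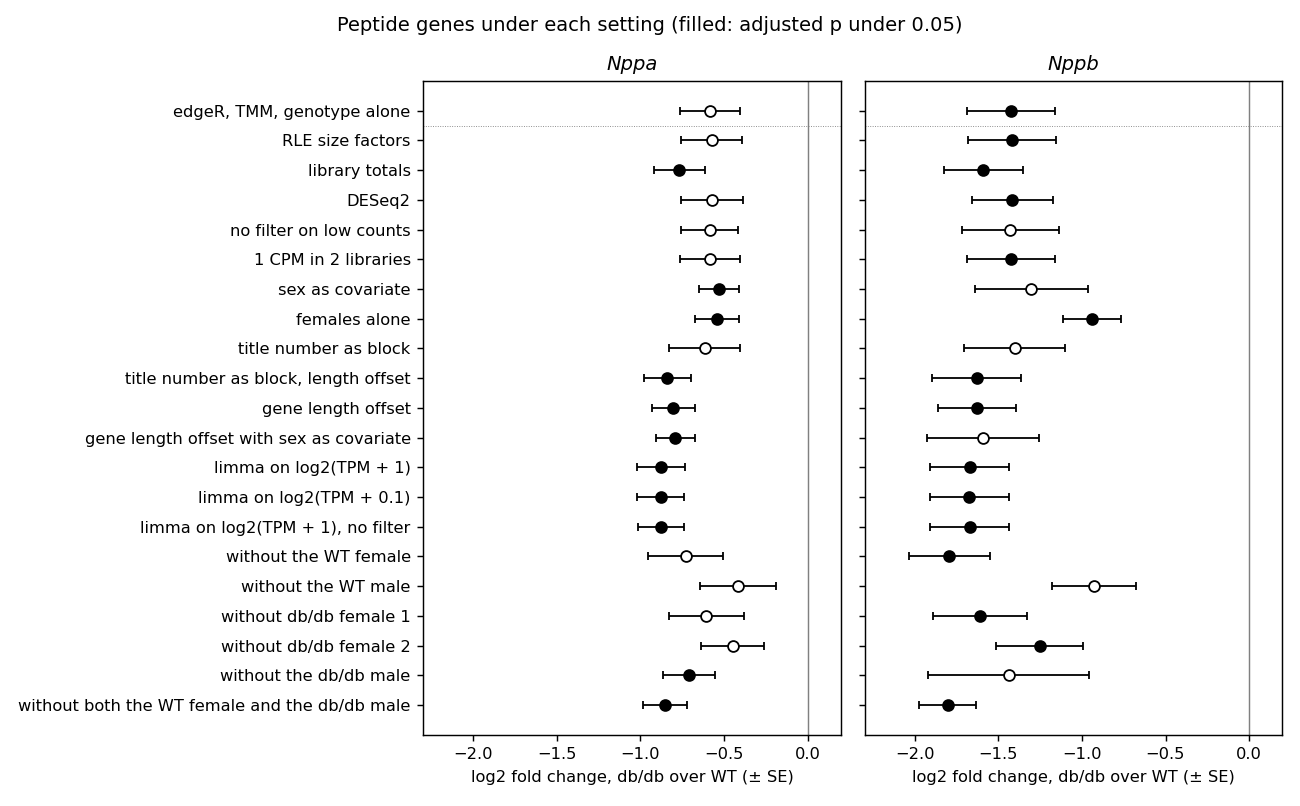
Log2 fold change of Nppa and Nppb in db/db over WT (± SE) in the fit with genotype alone (top) and under 20 alternatives, with filled points for an adjusted p under 0.05. All points of both genes lie left of 0, Nppa between -0.88 and -0.42 and Nppb between -1.80 and -0.93.

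The proteases that activate the peptides did not pass the test. Corin had 168, 175 and 158 CPM in db/db hearts, against 156 and 106 CPM in WT hearts. The db/db values lay above both WT values, with the db/db male and the WT female almost level. The log2 fold change of Corin was 0.35 (SE 0.17, 95% interval -0.021 to 0.72, edgeR adjusted p = 0.407). It was 0.10 without the WT male, 0.66 without the WT female and 0.086 on the TPM scale, none of them called. Furin had 81.8, 70.8 and 68.3 CPM in db/db hearts, against 78.4 and 58.8 CPM in WT hearts. Its groups overlapped, and its log2 fold change was 0.10 (SE 0.16, 95% interval -0.25 to 0.45, edgeR adjusted p = 0.825), with a sign that turned under 6 of 20 alternatives.

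The receptor genes did not pass the test either. Npr1, the receptor of both cardiac peptides, had 35.6, 31.2 and 30.8 CPM in db/db hearts, against 31.1 and 40.4 CPM in WT hearts. These ranges overlapped, and the log2 fold change was -0.13 (SE 0.16, 95% interval -0.49 to 0.22, edgeR adjusted p = 0.77). Npr2, the receptor of C-type peptide, had 61.8, 55.1 and 50.6 CPM in db/db hearts, against 63.9 and 60.3 CPM in WT hearts. The Npr2 groups overlapped through db/db female 1, and the log2 fold change was -0.15 (SE 0.14, 95% interval -0.46 to 0.16, edgeR adjusted p = 0.684). Npr3, the clearance receptor, had 13.97, 15.8 and 16.5 CPM in db/db hearts, against 12.2 and 12.9 CPM in WT hearts. All 3 db/db values were above both WT values on this scale, with a log2 fold change of 0.30 (SE 0.18, 95% interval -0.09 to 0.69, edgeR adjusted p = 0.498). On the TPM scale the groups of Npr3 overlapped and its difference was -0.026 (limma). On that scale Npr1 and Npr2 lay lower in every db/db heart than in both WT hearts. Their differences were -0.37 and -0.42 (limma adjusted p of 0.347 and 0.287), where the median of all genes stood at -0.24.

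Mme, the neprilysin gene, rested on few reads. It had 27, 41 and 34 counts in db/db hearts, against 65 and 46 counts in WT hearts. The groups did not overlap, and Mme was lower in 3 of 3 db/db hearts with a log2 fold change of -0.59 (SE 0.30, 95% interval -1.25 to 0.06, edgeR adjusted p = 0.418). Its point estimate was close to that of Nppa, with a wider interval.

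Over the 8 genes, 5 log2 fold changes were negative and 3 positive, with a median of -0.14 against -0.0071 over all tested genes, of which 50.98% were negative. On the CPM scale Nppa, Nppb and Mme did not overlap and were lower in db/db, which was also so for 16.5% of tested genes. Npr3 and Corin did not overlap and were higher in db/db, as were 15.1% of tested genes. Spans annotated for other genes overlap those of Npr2 (Spag8, 108 bases), Npr3, Corin and Furin, and the sources used here do not say that reads were counted by strand, so reads from such overlaps or from antisense transcripts cannot be told apart.

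**Figure D3:**
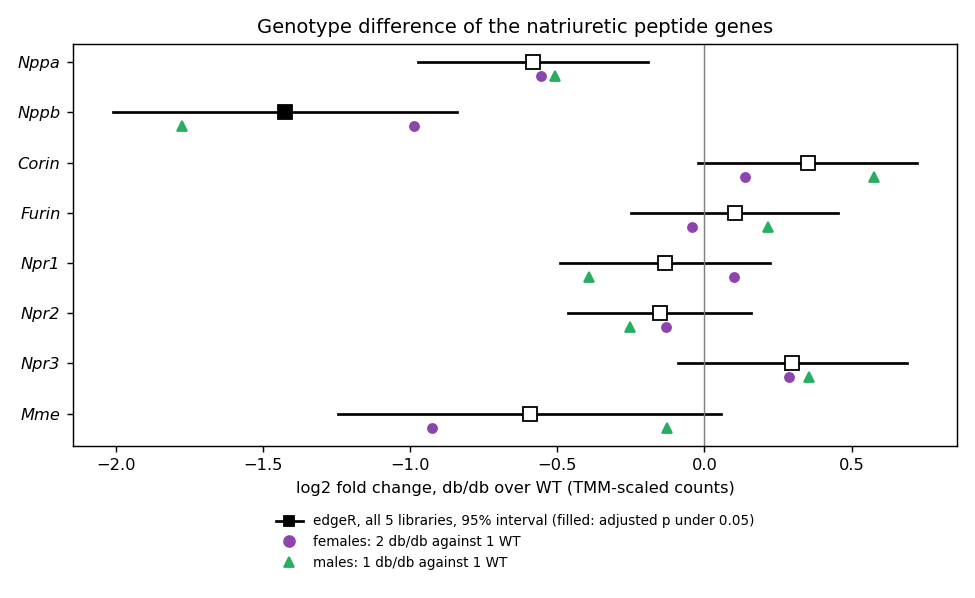
Log2 fold change in db/db over WT for the 8 genes (squares, edgeR over 5 libraries with the 95% interval; filled, adjusted p under 0.05), with the differences within females (circles, 2 db/db against 1 WT) and within males (triangles, 1 db/db against 1 WT). Nppb at -1.43 is the filled point, and Nppa and Nppb lie below 0 in both sexes.

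Each sex held both genotypes, so the genotype difference could be read within each. Nppb differed by -0.99 on the log2 scale in females and by -1.78 in males. Nppa differed by -0.55 in females and by -0.51 in males. Both peptide genes were thus lower in db/db within each sex. Corin differed by 0.14 in females and 0.58 in males, and Npr3 by 0.29 and 0.36. Npr1 differed by 0.10 in females and -0.39 in males, and Furin by -0.044 and 0.22, so these 2 genes changed sign between the sexes. Mme differed by -0.93 in females and -0.13 in males, and Npr2 by -0.13 and -0.25. The interaction of genotype and sex, with 1 residual degree of freedom, was -0.83 for Nppb (SE 0.28, edgeR adjusted p = 0.205). None of the 8 genes was called in this test, which called 1.16% of tested genes; at an unadjusted edgeR p under 0.05 stood Nppb and Corin (0.44, SE 0.22, adjusted p = 0.481).

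For males over females, with genotype in the model, none of the 8 genes was called by edgeR, where 1.4% of tested genes were. Nppa had a log2 fold change of 0.33 (SE 0.12, edgeR adjusted p = 0.201) and Corin of -0.30 (SE 0.12, adjusted p = 0.255), and both had an unadjusted p under 0.05. Nppb had 0.40 (SE 0.34, adjusted p = 0.679). Furin had -0.27 (SE 0.13, adjusted p = 0.34). The remaining 4 genes had adjusted p-values of 0.617 or above. With the length trend removed, the male over female difference was 0.079 for Nppa (edgeR adjusted p = 0.851), 0.12 for Nppb (adjusted p = 0.939) and -0.22 for Corin (adjusted p = 0.51), so the values of the short peptide genes moved with that trend.

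Ratios between genes of the same library do not depend on the scaling between libraries, although they keep any trend with gene length. The ratio of Nppa to Nppb in TPM was 1.16, 1.51 and 1.63 in db/db hearts, against 0.987 and 0.675 in WT hearts. ANP transcripts thus outnumbered BNP transcripts in each db/db heart and in neither WT heart, although they were almost level in the WT female. The difference of the log2 ratios was 0.80 (exact two-sided permutation p = 0.1, the smallest that 3 against 2 libraries allow, adjusted p = 0.2 over 4 ratios). The ratio of Corin to Nppa was 0.0949, 0.126 and 0.0788 in db/db hearts, against 0.0679 and 0.0370 in WT hearts. Relative to its substrate's transcript, the convertase was higher in every db/db heart, with a log2 difference of 0.97 (exact permutation p = 0.1, adjusted p = 0.2). On the TPM scale Corin itself differed by 0.086 and Nppa by -0.88 (limma), so most of this difference came from Nppa. Both ratio differences moved most when a WT library was left out. Without the WT male they were 0.52 for Nppa to Nppb and 0.53 for Corin to Nppa, and without the WT female 1.07 and 1.41. Leaving out a db/db library gave 0.70 to 0.94 for Nppa to Nppb and 0.79 to 1.13 for Corin to Nppa.

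The ratios of signalling to clearance receptors were lower on average in db/db. Npr1 to Npr3 was 4.15, 3.27 and 3.09 in db/db hearts, against 4.02 and 4.99 in WT hearts, and db/db female 1 lay between the WT hearts. The log2 difference was -0.37 (exact permutation p = 0.3, adjusted p = 0.3), and -0.21 without the WT male. Npr2 to Npr3 was 7.54, 6.10 and 5.33 in db/db hearts, against 8.65 and 7.93 in WT hearts. These groups did not overlap, with a log2 difference of -0.40 (exact permutation p = 0.2, adjusted p = 0.267).

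**Figure D4:**
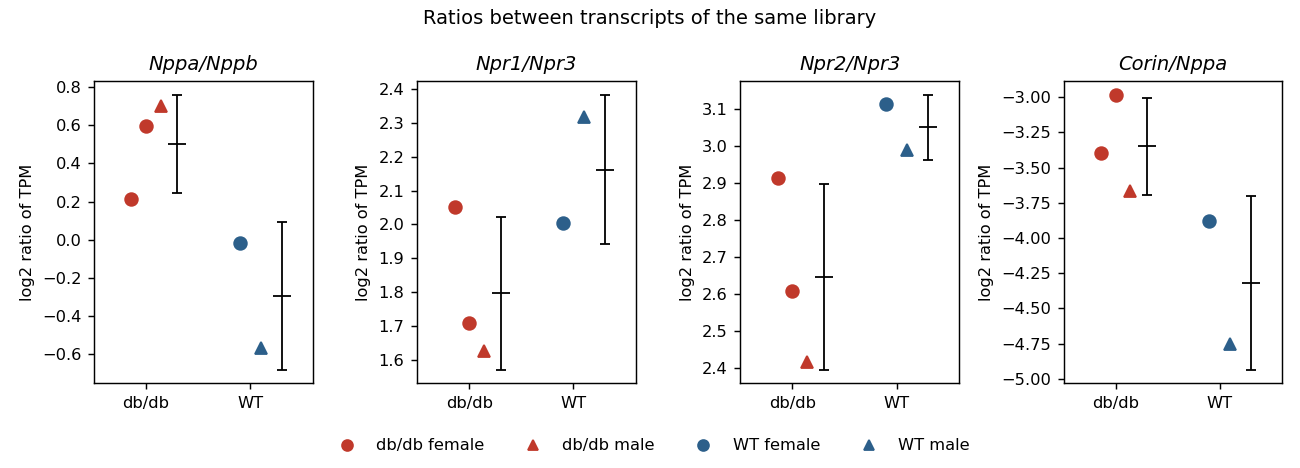
Log2 ratio of TPM between genes of the same library, with db/db at the left and WT at the right of each panel (circles, females; triangles, males; bar, mean ± SD). Nppa/Nppb and Corin/Nppa lie higher in all 3 db/db hearts than in both WT hearts, by 0.80 and 0.97 on average.

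Of all genes that averaged 5 CPM or more, the profiles nearest to Nppb over the 5 libraries (Euclidean distance of mean-centred log2 CPM) were those of Prnd (0.574), Rflnb (0.683) and Cd38 (0.691). Prnd codes for doppel, a relative of the prion protein, and was at 2.82, 2.31 and 2.09 TPM in db/db hearts, against 7.58 and 11.5 TPM in WT hearts. Its log2 fold change was -1.83 (SE 0.26, edgeR adjusted p = 0.00867). Rflnb, a filamin-binding protein gene, had -0.96 (SE 0.16, adjusted p = 0.0155), and Cd38, a NAD-consuming enzyme gene, had -0.93 (SE 0.24, adjusted p = 0.121, and 0.0298 in the model with sex). Without the WT male, Prnd had -1.34 (edgeR adjusted p = 0.0896) and Rflnb -0.71 (adjusted p = 0.157), and without db/db female 1 Rflnb had -0.99 (adjusted p = 0.0806). Nearest to Nppa were Rnf144a, a ubiquitin ligase gene (0.125), Chek2, a DNA damage kinase gene (0.138), and Slc29a3, a nucleoside transporter gene (0.142). Their log2 fold changes were -0.54, -0.73 and -0.53, and none was called (edgeR adjusted p of 0.232 to 0.406). These genes were picked for their likeness, so their fold changes are descriptions. Nppa and Nppb lay 1.02 apart. Of 10010 genes compared, 41 lay nearer to Nppb than this and 7423 lay nearer to Nppa.

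Of the genes near the peptide pair on chromosome 4, 5 were read beside it and none was called by edgeR. Log2 fold changes were 0.042 for 2510039O18Rik, -0.064 for Plod1, 0.058 for Mfn2, -0.31 for Clcn6 and -0.0037 for Agtrap, with edgeR adjusted p-values of 0.522 or above.

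Further genes of the pathway were taken from 4 lists. Of the 11 other ligands and proteases, 10 were in the table and 7 were tested, and 0 were called higher or lower by edgeR (median log2 fold change -0.022). Nppc, the C-type peptide gene, had 0, 0 and 0 counts in db/db hearts, against 1 and 1 count in WT hearts. Ostn, whose product binds the clearance receptor, had 1, 1 and 1 counts in db/db hearts, against 2 and 0 counts in WT hearts, so both ligand genes stood at or under 3 counts per library. Enpep, an aminopeptidase gene, had the smallest p of the list (-0.37, SE 0.27, edgeR adjusted p = 0.584).

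Of 21 genes of cGMP signalling and breakdown, 20 were tested and 0 were called higher or lower by edgeR (median -0.13, with 14 negative and 6 positive). The smallest p belonged to Rgs2, a brake on G protein signalling that cGMP-dependent kinase activates. It was at 13.8, 12.2 and 10.9 TPM in db/db hearts, against 13.3 and 6.50 TPM in WT hearts, with a log2 fold change of 0.63 (SE 0.21, edgeR adjusted p = 0.251). The kinase gene Prkg1 had -0.16 (SE 0.22, adjusted p = 0.802), and the cGMP phosphodiesterase genes Pde5a and Pde9a had 0.12 and 0.10 (adjusted p of 0.898 and 0.894).

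All 22 regulators of peptide gene transcription were tested, and 0 were called higher or lower by edgeR (median -0.066, with 13 negative and 9 positive). Hand2, a cardiac bHLH factor gene, had the smallest p (0.57, SE 0.14, adjusted p = 0.0882). Gata4, whose product binds GATA motifs like those printed above, was at 41.8, 43.9 and 29.96 TPM in db/db hearts, against 67.8 and 54.1 TPM in WT hearts. Its groups did not overlap, and its log2 fold change was -0.38 (SE 0.14, edgeR adjusted p = 0.289). On the CPM scale, 16.5% of tested genes were lower in db/db without overlap. Gata6, another GATA factor gene, went the other way, with 0.26 (SE 0.19, edgeR adjusted p = 0.583). Whether these factors had a part in the peptide values was not tested. Tead1, a factor of the M-CAT motif, had -0.59 (SE 0.19, adjusted p = 0.232), and Nkx2-5 had 0.22 (SE 0.15, adjusted p = 0.542). In the model that also held sex, which called 6.61% of all tested genes, 1 regulator was called higher and 3 lower by edgeR: Hand2 (0.58, adjusted p = 0.0088), Tead1 (-0.67, 0.00683), Tbx20, a T-box factor gene (-0.62, 0.0159), and Gata4 (-0.41, 0.0411).

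Of 13 genes that respond to load in heart muscle cells, 11 were tested and 0 were called higher or lower by edgeR (median -0.036). Gdf15, a stress cytokine gene, was at 2.60, 1.51 and 1.42 TPM in db/db hearts, against 4.82 and 8.61 TPM in WT hearts. As with Nppb, both WT hearts were above all db/db hearts and the WT male was highest, and the log2 fold change was -1.61 (SE 0.42, edgeR adjusted p = 0.12). Ankrd1, a titin-binding protein gene, had -0.47 (SE 0.26, adjusted p = 0.465). Myh7, the slow myosin chain gene, had 0.56 (SE 0.72, adjusted p = 0.795), and Acta1, skeletal actin, -0.63 (SE 0.996, adjusted p = 0.84), both with wide errors and overlapping groups. In the model with sex, which called 6.61% of all tested genes, edgeR called Fhl1, a LIM protein gene, higher (0.41, adjusted p = 0.0406).

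**Figure D5:**
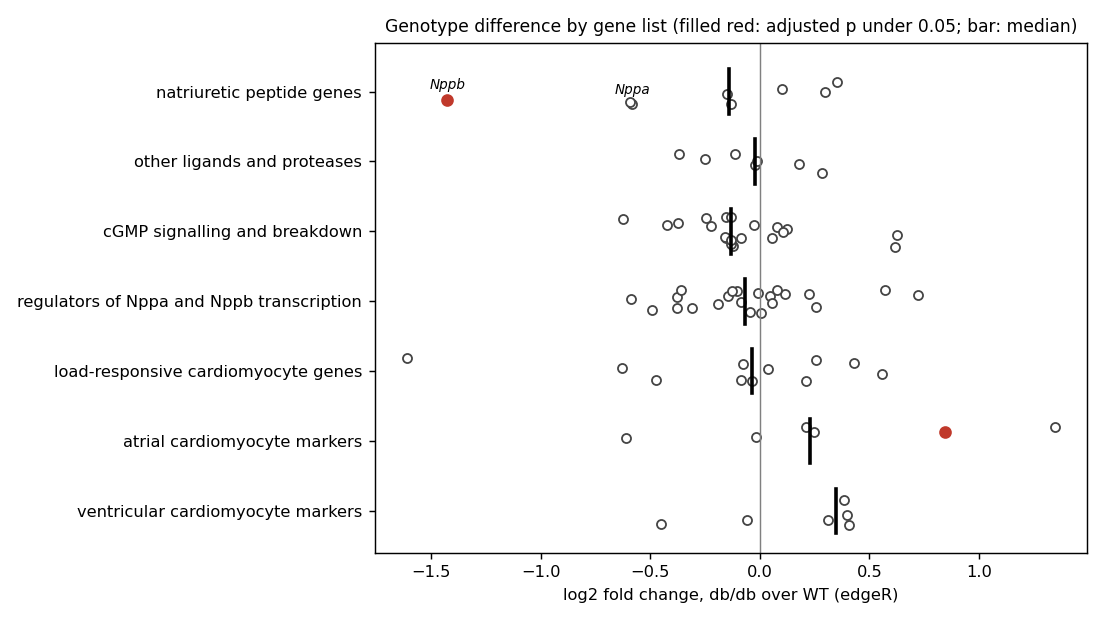
Log2 fold change in db/db over WT (edgeR) of each tested gene of the 8 natriuretic peptide genes, 4 pathway lists and 2 lists of heart muscle cell markers (points; filled red, adjusted p under 0.05; bar, median of the list). Nppb at -1.43 and, among the atrial markers, Kcna5 at 0.85 are the filled points.

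Nppa is made at far higher levels in atrial than in ventricular muscle, so the atrial marker list was read beside it. Of 9 atrial markers 6 were tested, with 1 called higher and 0 called lower by edgeR (median 0.23). Kcna5, an atrial potassium channel gene also expressed in mouse ventricle, was at 29.6, 25.6 and 18.1 TPM in db/db hearts, against 18.7 and 14.4 TPM in WT hearts (log2 fold change 0.85, SE 0.16, edgeR adjusted p = 0.0324). It lost the call in 9 of 20 alternatives, among them library totals (0.67), the TPM settings (0.52 to 0.54), and the fits without the WT female (0.91), the WT male (0.79), db/db female 1 (0.73) or db/db female 2 (0.85). The summed level of the 9 markers was 104, 91.2 and 109 TPM in db/db hearts, against 86.6 and 90.8 TPM in WT hearts, most of it from Stard10. Sbk3, a kinase gene, had the largest difference of the list, at 7.63, 7.05 and 4.24 TPM in db/db hearts, against 1.47 and 4.64 TPM in WT hearts (log2 fold change 1.35, SE 0.47, edgeR adjusted p = 0.303). Myl4, the atrial light chain gene, was at 5.13, 5.72 and 9.37 TPM in db/db hearts, against 6.81 and 7.48 TPM in WT hearts. These levels were low beside the ventricular markers, and Myl4 overlapped between genotypes. Sln, the sarcolipin gene, had 0, 0 and 12 counts in db/db hearts, against 0 and 0 in WT hearts. Myl7, another atrial light chain gene, had 7, 8 and 38 counts in db/db hearts (10.7 TPM in the male), against 2 and 7 in WT hearts, and Bmp10 had 0 or 1 count in every library. The db/db male had the most Sln, Myl7 and Myl4. Whether atrial tissue had a part in the Nppa values was not tested. In bulk hearts, fewer cells of a type and less RNA per cell cannot be told apart.

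The 6 ventricular markers summed to 87258, 84652 and 94082 TPM in db/db hearts, against 81657 and 83975 TPM in WT hearts. This was far above the sum of the atrial markers in every library. None of the 6 was called by edgeR with genotype alone (median 0.35), and Irx4, a ventricular factor gene, had the smallest p (-0.45, SE 0.14, adjusted p = 0.191). None of the tested markers of endothelium, endocardium, fibroblasts, smooth muscle and pericytes, macrophages, neutrophils or red blood cells was called by edgeR with genotype alone. Medians were -0.095 for endothelium, -0.40 for endocardium, 0.016 for fibroblasts and -0.20 for smooth muscle and pericytes. They were 0.0023 for macrophages, 0.11 for neutrophils and 0.24 for red blood cells. The lead genes by p were Kdr (-0.62, adjusted p = 0.241), Vwf (0.58, 0.164), Dcn (0.23, 0.588), Myh11 (0.67, 0.218), Adgre1 (-0.998, 0.235), S100a9 (0.40, 0.801) and Hba-a1 (0.31, 0.779). The model with sex called 6.61% of all tested genes. In it edgeR called 4 ventricular markers, namely Myl2 (0.47, adjusted p = 0.0116), Myl3 (0.47, 0.0164), Tnni3 (0.42, 0.0212) and Irx4 (-0.46, 0.0468). It also called Egfl7 of endothelium (0.51, adjusted p = 0.0198), Vwf of endocardium (0.58, 0.0458), and Myh11 (0.71, 0.0354) and Abcc9 (-0.73, 0.00565) of smooth muscle and pericytes. None of the 5 adipocyte markers passed the filter on low counts. Whether the mix of cells had a part in the peptide values was not tested.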

How the data were processed

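Heart RNA-seq was compared between 3 db/db and 2 WT libraries. The submitters' processing notes name HISAT, Bowtie2, DESeq2 and the build GRCm38.p6, without roles. The authors deposited estimated counts (expected counts) with 91.4% exactly whole, which were rounded here. Per the file headers, the authors also deposited FPKM, used here only for gene length, and TPM, as well as the log2 fold change, p-value and q-value of each gene. In all, 23 symbols turned into dates were restored through gene IDs, and 17120 of 17228 IDs were in RefSeq.

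Genes passing edgeR's filter were scaled by TMM, and edgeR 4.0.16 (R 4.3.3) gave the tests (robust quasi-likelihood F test, Benjamini-Hochberg adjustment over 12540 genes, threshold 0.05). SE values came from the F statistic. Sex was tested with genotype in the model, and the interaction with both. Alternatives used DESeq2 1.42.0, limma 3.58.1 on log2(TPM + 1) or log2(TPM + 0.1), for genes over 1 TPM in 2 libraries or unfiltered, other scalings and filters, a length offset (loess, span 0.3) and leaving out libraries. Ratios were compared by exact permutation over 10 splits. The floor for a count of 0 was set at 3 counts, or 0.289 to 0.359 CPM, for counting error alone. On simulated counts for the 12540 genes, the db/db over WT test called 74 of 100 genes set to 2-fold and 95 of 100 set to 4-fold. Of its calls, 4.52% were false. The simulated counts took their spread from the fit itself and held no length trend and no difference between the sexes. These rates therefore describe that simpler setting and can differ in the libraries themselves.

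The genes and lists were chosen with earlier results of these data known. Named were the 8 genes, Lepr, the gene of smallest p in each list (or the called ones), and the 3 profiles nearest to each peptide gene. Genes named beside these (Prkg1, Pde5a, Pde9a, Gata4, Tead1, Nkx2-5, Ankrd1, Myh7, Acta1, single atrial markers, and chromosome 4 neighbours) were chosen for their role. Gata6, Sbk3 and the list genes called in the model with sex were named after their values were seen. The replicate numbers in the titles were not used to pair libraries across genotypes in the main fit, and whether they mark pairs is not known.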

Additional observations from a re-analysis of the deposited data

How the results depend on the processing

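Nppa was negative under all 20 alternatives and passed the threshold with library totals (-0.77, edgeR adjusted p = 0.0343), sex as a covariate (-0.53, 0.0184), females alone (-0.54, 0.00196), the length offset (-0.80, 0.0115), the length offset with sex (-0.79, 0.0022), limma on log2(TPM + 1) (-0.88, 0.00139), log2(TPM + 0.1) (-0.88, 0.00206) or unfiltered TPM (-0.88, 0.0491), and with the db/db male and the WT female left out together (-0.85, 4.19e-08). That last setting compares 2 db/db females with 1 WT male, so genotype and sex cannot be told apart in it. Leaving out 1 library gave -0.73 to -0.42. Nppb was negative in all 20 and missed the threshold without a filter on low counts (-1.43, 0.0714), with sex as a covariate (-1.30, 0.141) and with the length offset and sex (-1.59, 0.135). Leaving out 1 library gave -1.79 to -0.93, and the call was lost without the WT male or without the db/db male.

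The replicate block on the title number gave Nppb -1.40 (adjusted p = 0.0883), Nppa -0.62 (0.318) and 80 called genes. The replicate block with the length offset gave Nppb -1.63 (0.0386), Nppa -0.84 (0.017) and 130 called genes. Deviations of same-numbered libraries correlated at 0.21, -0.27 and -0.16. The deviations of the 2 WT libraries mirror each other, and the negative values compare a female with a male. These values therefore cannot show whether equal numbers mean pairs, and the main fit took no pairs.

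Furin turned negative with library totals (-0.085), females alone (-0.038) and TPM (-0.16, -0.17 and, unfiltered, -0.16), and leaving out 1 library gave -0.088 (without the WT male) to 0.33. Npr1 turned positive in females alone (0.11), and leaving out 1 library gave -0.31 to 0.071 (without the WT male). Npr3 turned negative on each TPM scale (-0.026, -0.033 and, unfiltered, -0.026). Corin passed with the db/db male and the WT female left out together (0.69, adjusted p = 0.000228), where genotype goes with sex, and stood at 0.14 (0.651) in females alone and 0.10 to 0.66 with 1 library left out. For males over females, library totals turned Npr1 (-0.034), Npr3 (-0.022) and Mme (-0.071) negative. These settings for the sex effect were added after the data were seen. The cause was not tested. The Nppa to Nppb ratio kept its sign in 7 alternatives (0.52 to 1.07).

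Beside 129 genes, 234 were called by DESeq2, 259 without a filter, 829 in the model with sex, 984 in females alone, 440 with the length offset and sex, 37 on unfiltered TPM and 433 with that pair left out. Leaving out 1 library gave 25 to 240. Library totals moved the median of all genes to -0.19 and the split to 59 higher and 85 lower, and the TPM settings moved it to -0.24, -0.28 and -0.17, with 52 and 99, 50 and 75, and 13 and 24. Relative to these medians Nppb stood at -1.40, -1.43, -1.40 and -1.50, and Nppa at -0.58, -0.64, -0.60 and -0.71. Females alone, and leaving out 1 WT library, assume that the lone WT library varies like the db/db libraries. Mme, with 27 to 65 counts, is the member whose precision depth limits most.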
